A study of Mus musculus with 2 samples.

Results

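Ccl2, Ccl7, Ccl8 and Ccl12, mouse chemokines grouped as attractants of monocytes, were followed with Ccr2 across the cell classes of LLC tumors. Ccr2 is a receptor shared by Ccl2, Ccl7 and Ccl12. These 5 genes were taken by name from the 32285 genes listed in the count tables, of which 23372 had at least 1 UMI (a molecule counted once by its barcode) in a cell kept here, and all 5 members were among them. LLC is the Lewis lung carcinoma line, a mouse lung tumor line that grows under the skin of C57BL/6 mice. Cells came from tumors of Gucy1b1 flox/flox mice (sGC Ctr) and of Cspg4-CreERT2::Gucy1b1 flox/flox mice (sGC ∆PC, whose label spells the floxed gene Gucyc1b1), 1 library each, made by the 10x 3′ method from the pooled cells of 3 tumors. Mice of both groups were C57BL/6, carried the floxed allele, were given tamoxifen in 5 doses when 4 weeks old, were inoculated with LLC cells at 8 weeks and were dissected 2 weeks later. Gucy1b1 encodes the β1 subunit of soluble guanylate cyclase, the nitric oxide receptor. The Cre is driven by Cspg4, a gene of pericytes that other cells can also use, so a deletion outside pericytes was not examined.

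CC chemokines are small secreted proteins that guide leukocytes through receptors coupled to G proteins. Ccl2, Ccl7 and Ccl12 act on Ccr2, which inflammatory monocytes need to leave the bone marrow and enter inflamed or tumor tissue, where many become macrophages and lose the receptor. Ccl7 and Ccl8 can also act on other CC receptors, and mouse Ccl8 is best known as a ligand of Ccr8. Macrophages, fibroblasts, endothelial cells and many carcinoma lines can make Ccl2.

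The 4 ligands lie in a row on the plus strand of mouse chromosome 11, within 81229 bases (GRCm38, GENCODE annotation). Ccl2 lies at chr11:82035571-82037453 and Ccl7 at chr11:82045712-82047525, 8258 bases apart. Ccl11, an eosinophil chemokine, follows at chr11:82057823-82062955, then Ccl12 at chr11:82101845-82103400 and Ccl8 at chr11:82115185-82116799, with 11784 bases between the last pair. Each of the 4 has 3 exons. Ccr2 lies on the plus strand at chr9:124101950-124113557. The transcripts of the 4 ligands share stretches of at most 11 to 23 bases in any pair, the longest between Ccl2 and Ccl7.

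The 250 bases before the start of Ccl8 and Ccl12 are shown because these neighbors had the most restricted sources among the 4 ligands and were highest in the same macrophage state. They are RefSeq promoters on GRCm38.p6, plus strand, Ccl8 at chr11:82114935-82115184 and Ccl12 at chr11:82101595-82101844, 5′ to 3′, with the letters TATAAA in capitals.
Ccl8: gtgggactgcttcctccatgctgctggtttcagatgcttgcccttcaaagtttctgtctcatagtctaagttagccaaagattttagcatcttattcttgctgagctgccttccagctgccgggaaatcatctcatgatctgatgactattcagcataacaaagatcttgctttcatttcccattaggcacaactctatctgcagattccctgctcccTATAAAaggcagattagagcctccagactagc
Ccl12: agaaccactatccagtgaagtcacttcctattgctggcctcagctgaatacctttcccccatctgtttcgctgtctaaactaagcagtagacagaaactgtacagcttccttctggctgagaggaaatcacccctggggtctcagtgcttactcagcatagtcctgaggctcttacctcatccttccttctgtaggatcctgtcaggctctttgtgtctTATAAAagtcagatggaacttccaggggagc
TATAAA lies 32 to 27 bases before the start of Ccl8 and 31 to 26 bases before that of Ccl12, and 12.4% of 32851 promoters of the same table hold it on either strand. Of 228 aligned bases, 150 (65.8%) were identical, with no shared stretch over 8 bases. The letters TGANTCA (AP-1, in 6.75% of promoters), TTCNNNGAA (STAT, 7.02%) and TTGCNNAA (CEBP, 9.56%), read on both strands, were not in these windows, nor was the NF-kB motif (4.11%).

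The libraries held 15007 and 25631 barcodes with 487859656 and 436352742 UMIs (sGC Ctr first, here and below), and 131 barcode sequences occurred in both. Of 12220 and 22498 cells kept (median 35776.5 and 8685 UMIs), 10040 (82.2%) and 11265 (50.1%) met the marker gate of a class, so the sGC ∆PC library was shallower per cell and held more cells outside every class. Classes were gated on marker genes that include no member. They comprised 2677 and 2455 myeloid cells, 6997 and 8443 cancer-like cells, 72 and 74 fibroblast-like cells and 53 and 48 endothelial-like cells. Myeloid cells were divided by further lists into monocyte-like cells (Ly6c2, Plac8 and others; 320 and 265), MHC II-high cells (435 and 604), resident-like macrophages (Mrc1, Folr2, Lyve1 and others; 718 and 433), Gpnmb-high cells (263 and 252), proliferating cells (182 and 108), 6 and 15 osteoclast-like cells and a remainder (753 and 778). In the 25 and 15 pericyte-like cells, the deleted gene Gucy1b1 had 39 and 11 UMIs (121 and 58.6 CPM, UMIs per 1000000 UMIs of the class). Its log2 ratio of sGC ∆PC over sGC Ctr was -1.04 (-2.16 to -0.05). Cspg4 in the same cells had 53 and 17 UMIs and a ratio of -0.86 (-1.74 to -0.05), so the lower level was not particular to Gucy1b1. With 1 library per condition no test between conditions was possible and the condition cannot be told apart from the library; every interval is a 95% interval that covers counting error only. In pooled RNA of a class, fewer positive cells and less RNA per cell cannot be told apart from the CPM alone.

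Ccl2, the prototype monocyte attractant, was found in every class with over 40 cells. Its level was highest in resident-like macrophages, at 1292 CPM in sGC Ctr (12322 UMIs) and 1352 CPM in sGC ∆PC (7840 UMIs). Proliferating myeloid cells had 770 and 651 CPM, cancer-like cells 460 and 604, Gpnmb-high cells 489 and 362, and MHC II-high cells 364 and 352. Endothelial-like cells stood at 266 CPM (interval 240 to 294) in sGC Ctr, where they overlapped the 229 CPM (209 to 251) of monocyte-like cells, and at 733 CPM (682 to 787) in sGC ∆PC, where they overlapped proliferating cells. Fibroblast-like cells had 125 CPM (109 to 144) in sGC Ctr and 322 CPM (292 to 356) in sGC ∆PC, the latter overlapping the 349 CPM of monocyte-like cells. Resident-like macrophages thus stood above every other class in both libraries, while the order of the classes below them differed between libraries.

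Ccl2 UMIs also appeared in granulocyte- and T cell-like cells, which should hold little of it and served as the background of free RNA in the droplets. The granulocyte-like gate set no limit on the myeloid list, whose median there was 69.3 and 57.5 UMIs per 10000. The part of macrophage RNA in this background was not tested. Granulocyte-like cells (106 and 132 cells) had 0.302 and 0.720 Ccl2 UMIs per cell, and T cell-like cells (48 and 50 cells) had 0.229 and 0.760. With every cell thinned to 2000 UMIs, 19.8% and 33.3% of granulocyte-like cells had a Ccl2 UMI (unthinned 26.4% and 47.7%, at median depths of 2605.5 and 2909.5 UMIs). The thinned share was 57.1% and 60.7% in resident-like macrophages (unthinned 83.0% and 88.7%) and 37.1% and 52.3% in cancer-like cells (91.7% and 92.7%), above this background. It was 21.2% and 35.5% in monocyte-like cells, 15.3% and 31.1% in fibroblast-like cells and 26.4% and 29.2% in endothelial-like cells, at about the granulocyte-like share. Thinning takes more from deep cells than from the shallow granulocyte-like cells, so this share cannot place these classes against background per droplet. Unthinned, monocyte-like cells held 472 UMIs in 320 cells and 647 in 265. Fibroblast-like cells held 205 in 72 and 398 in 74, and endothelial-like cells 390 in 53 and 764 in 48. Per cell, each was above granulocyte-like cells (32 in 106 and 95 in 132). The part of free RNA was not tested. The UMIs of fibroblast- and endothelial-like cells sat in few cells: the 5 with the most Ccl2 held 53.7% and 70.9% of the fibroblast-like UMIs and 72.6% and 72.9% of the endothelial-like UMIs.

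Ccl7, which attracts monocytes through Ccr2 and other CC receptors, was more restricted. Its level was 902 CPM in resident-like macrophages of sGC Ctr and 745 CPM in those of sGC ∆PC. Proliferating myeloid cells had 369 and 250 CPM, Gpnmb-high cells 203 and 204, and MHC II-high cells 174 and 165. Outside the myeloid cells it stood at 90.4 and 156 CPM in fibroblast-like cells and 80.7 and 99.5 CPM in cancer-like cells, with overlapping intervals for this pair in sGC Ctr only. Monocyte-like cells had 24.3 and 77.6 CPM, with intervals that overlapped those of granulocyte-like cells (23.0 and 52.4 CPM). Endothelial-like cells held 10 and 12 UMIs in all, so Ccl7 there was near nothing although Ccl2 was not.

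Ccl8 was concentrated in resident-like macrophages more than any other ligand. These cells had 1044 CPM in sGC Ctr (9958 UMIs) and 1364 CPM in sGC ∆PC (7908 UMIs), and a Ccl8 UMI was found in 20.5% and 26.1% of them after thinning. The 10% of these cells with the most Ccl8 held 91.1% and 90.1% of its UMIs, and single cells reached 623 and 1354 UMIs. For comparison, the top 10% of cells held 51.0% and 53.8% of the Ccl2 UMIs of the same cells. Ccl8 was therefore the property of a minority of resident-like macrophages in both libraries. Proliferating myeloid cells had 208 and 161 CPM and MHC II-high cells 197 and 212 CPM. Outside the myeloid cells, fibroblast-like cells had 158 CPM (139 to 178) and 182 CPM (159 to 208). In fibroblast-like cells the thinned share was 33.3% (22.7 to 45.4%) and 21.6% (12.9 to 32.7%), against 8.49% and 1.52% of granulocyte-like cells. Their myeloid marker list stood at 1.19% and 1.12% of its level in myeloid cells, with all 13 markers seen in both libraries (summed level 4.32 and 3.73 UMIs per 10000), whereas Ccl8 stood at 38.9% and 45.8% of its myeloid level. Single genes of that list ran from 0.686 to 8.98% and from 0.781 to 2.87%. The 5 fibroblast-like cells with the most Ccl8 held 37.2% and 60% of its UMIs in the class. Endothelial-like cells had 9 and 5 UMIs, and cancer-like cells 4.33 and 5.62 CPM.

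Ccl12, a mouse Ccr2 ligand with no human counterpart of the same name, was the most myeloid of the 4. Resident-like macrophages had 873 and 660 CPM, proliferating myeloid cells 446 and 440, MHC II-high cells 168 and 135, and monocyte-like cells 13.1 and 51.8. Cancer-like cells had 1.77 and 2.12 CPM. That was 0.450% and 0.681% of the myeloid level, and the myeloid marker list stood at 0.478% and 0.804% in the same cells (single genes 0.375 to 1.28% and 0.701 to 1.92%). Fibroblast-like cells had 20 and 8 UMIs, 12 of the former in 1 cell, and T cell-like cells had 0 and 1 UMI (0 UMIs allow up to 14.6 CPM). No class outside the myeloid cells thus held Ccl12 clearly above these backgrounds, apart from the dendritic-like class of sGC ∆PC, where 78 of the 79 UMIs came from 1 cell.

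**Figure D1:**
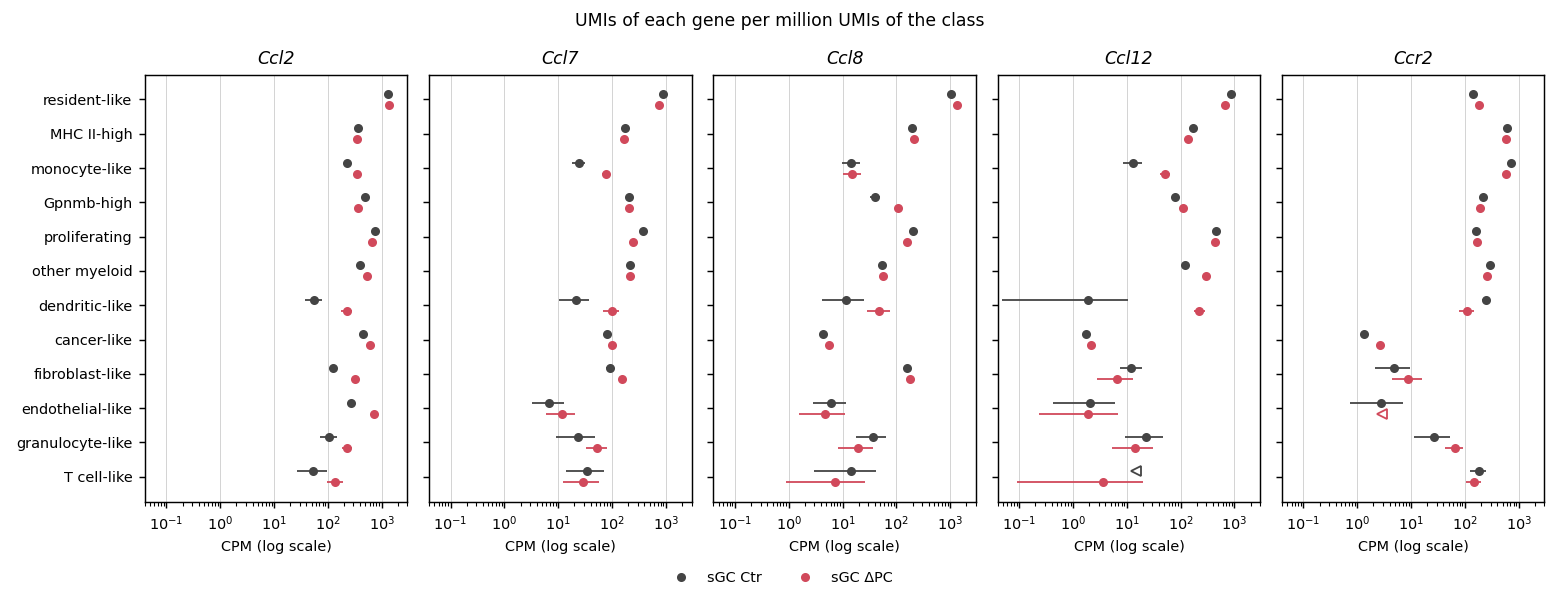
Level of each gene in 12 cell classes, in CPM on a logarithmic axis. Dots are the sGC Ctr (dark) and sGC ∆PC (red) libraries, lines are 95% counting intervals, and an open triangle marks the upper limit where a class had 0 UMIs. Resident-like macrophages lie farthest right for the 4 ligands and monocyte-like and MHC II-high cells for Ccr2.

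Ccr2 ran the other way. Monocyte-like cells had 714 CPM (678 to 752) in sGC Ctr and 585 CPM (551 to 621) in sGC ∆PC, and MHC II-high cells had 614 (591 to 638) and 579 (560 to 598). The intervals of these classes overlapped in sGC ∆PC and not in sGC Ctr. The thinned share of cells with a Ccr2 UMI was 67.2% and 59.6% in monocyte-like cells and 63.4% and 55.5% in MHC II-high cells, against 1.89% and 4.55% of granulocyte-like cells. Resident-like macrophages had 141 and 181 CPM and a share of 17.0% and 22.2%, above the granulocyte-like background. The receptor was therefore lower in resident-like macrophages than in monocyte-like cells, but present there. T cell-like cells had 179 and 145 CPM in 27.1% and 20% of cells, and dendritic-like cells (60 and 46 cells) 244 and 110 CPM. Cancer-like cells had 1.34 and 2.59 CPM, which was 0.451% and 0.793% of the myeloid level and within the range of the myeloid markers. Fibroblast-like cells held 8 and 11 UMIs, and endothelial-like cells 4 and 0 (the latter allows up to 2.88 CPM).

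The 4 ligands and Ccr2 thus differed in opposite directions between resident-like macrophages and monocyte-like cells. No order of states from monocyte to macrophage was made. In resident-like macrophages relative to monocyte-like cells, Ccl2 was 5.63-fold and 3.88-fold higher, Ccl7 37.1-fold and 9.59-fold, Ccl8 71.6-fold and 90.3-fold, and Ccl12 66.5-fold and 12.8-fold. Ccr2 was 5.07-fold and 3.22-fold lower. All 4 ligands passed 2-fold higher and the receptor 2-fold lower in both libraries, where 17.3% and 12.5% of all genes passed 2-fold higher in resident-like macrophages and 6.61% and 5.95% 2-fold lower, with a median log2 ratio over all genes of 0.28 and 0.18. These 10 ratios kept their sign in all 90 values from other gates, depths and scalings, but 27 of the 90 moved past the counting interval. Which cells counted as resident-like macrophages depended on how cells were classed. In sGC Ctr only 426 of the 718 gated cells fell in the matching class by clusters of similar cells. In sGC ∆PC the matching part of the 433 gated cells was smaller still. By clusters the log2 ratio in sGC Ctr went from 5.21 to 3.65 for Ccl7, from 6.06 to 4.83 for Ccl12 and from 2.49 to 1.79 for Ccl2. The Ccl8 of monocyte-like cells (14.6 and 15.1 CPM) and their Ccl12 in sGC Ctr (13.1 CPM) were no higher than in granulocyte-like cells (36.2, 19.1 and 23.0 CPM), so those folds are set against background counts. Their Ccl7 (24.3 and 77.6 CPM) had intervals that overlapped those of granulocyte-like cells (23.0 and 52.4 CPM). By CPM the Ccl7 folds are thus set against levels not clearly above background. Per cell, monocyte-like cells held more Ccl7 (50 UMIs in 320 cells and 144 in 265) than granulocyte-like cells (7 in 106 and 22 in 132). Median depths were 6142 and 6818 UMIs in monocyte-like cells and 2605.5 and 2909.5 in granulocyte-like cells. The part of free RNA in this Ccl7 was not tested. The same markers set the resident-like and monocyte-like states in both libraries, so the libraries are a repeat of the pattern under shared gates.

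Within resident-like macrophages the ligands were often found together. After thinning, Ccl2 was found in 74.8% and 77.9% of the cells with Ccl8, 79.9% and 80.6% of those with Ccl7 and 78.8% and 83.3% of those with Ccl12, against 57.1% and 60.7% of all resident-like macrophages. Ccl12 was found in 54.4% and 49.6% of the cells with Ccl8, against 34.8% and 30.5% of all. Ccr2 was found in 7.48% and 11.5% of the cells with Ccl8, below its 17.0% and 22.2% in all resident-like macrophages. With the other ligands it lay closer to that share and was not always below it. It was in 15.1% and 20.2% of cells with Ccl2, 15.0% and 23.1% with Ccl7, and 15.6% and 25% with Ccl12. Cells of these sets share their libraries and gates, so the shares are descriptions of co-detection.

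Across all myeloid cells thinned to equal depth, the share with a Ccr2 UMI was lower the more ligands a cell held. In sGC Ctr it was 44.8% (42.2 to 47.5%) of 1385 cells with no ligand, 37.8% with 1, 24.5% with 2, 14.0% with 3 and 12.9% (6.05 to 23.0%) of 70 cells with all 4. In sGC ∆PC it was 41.5% (38.6 to 44.4%) of 1158 cells with none, 39.4%, 27.7%, 23.2% and 13.6% (6.04 to 24.98%) of 59 cells with all 4. The intervals of cells with 3 and with 4 ligands overlapped in each library. In sGC ∆PC so did those of cells with none and with 1. There the intervals of cells with 2 (23.1 to 32.8%) and with 3 ligands (17.3 to 30.0%) overlapped as well. These shares pool the myeloid states, which themselves differed in both Ccr2 and the ligands. Ccr2 by number of ligands was not examined within a state, so the fall is no evidence of an inverse relation inside one.

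**Figure D2:**
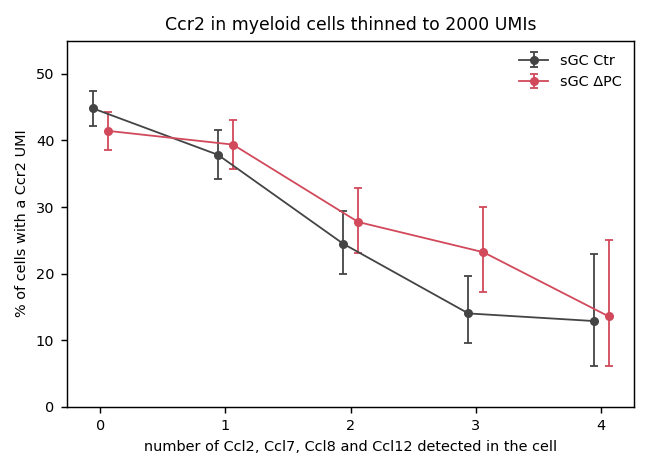
Share of myeloid cells with a Ccr2 UMI (%, vertical axis) by the number of Ccl2, Ccl7, Ccl8 and Ccl12 detected in the same cell (horizontal axis), every cell thinned to 2000 UMIs. Points are the sGC Ctr (dark) and sGC ∆PC (red) libraries with exact 95% binomial intervals. Both series go down from cells with no ligand (44.8% and 41.5%) to cells with all 4 (12.9% and 13.6%). All myeloid states are pooled.

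Within the myeloid class the members differed little between libraries, and none of the 5 passed 2-fold, where 0.587% of 11935 genes passed it higher in sGC ∆PC and 0.352% lower. As log2 of sGC ∆PC over sGC Ctr, the ratio was -0.13 (-0.16 to -0.10) for Ccl2 (716 and 655 CPM), -0.45 (-0.49 to -0.41) for Ccl7 (431 and 315 CPM), -0.02 (-0.06 to 0.01) for Ccl8 (405 and 398 CPM) and -0.34 (-0.38 to -0.30) for Ccl12 (393 and 311 CPM). Ccr2 stood at 0.14 (0.09 to 0.18), with 297 and 326 CPM. Ccl7 and Ccl12 kept their sign under every alternative, whereas Ccl2, Ccl8 and Ccr2 took the other sign under some. The makeup of the class moved with these values: resident-like macrophages were 26.8% of myeloid cells in sGC Ctr and 17.6% in sGC ∆PC, MHC II-high cells 16.2% and 24.6%, and monocyte-like cells 11.95% and 10.8%. The states of sGC ∆PC were then weighted to their shares of the myeloid UMIs, not of the cells, in sGC Ctr. So weighted, the log2 ratios were 0.08 for Ccl2, -0.22 for Ccl7, 0.33 for Ccl8, -0.08 for Ccl12 and -0.06 for Ccr2. State sizes rest on thresholds. Of the resident-like macrophages, 141 and 98 lay just above theirs (20 to 25 UMIs of the list per 10000, from a threshold of 20). Cells just below it were not counted.

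Within the states the ratios were of both signs. In resident-like macrophages no member passed 2-fold (background 0.795% higher, 0.408% lower): Ccl8 was at 0.39 (0.34 to 0.43) and Ccr2 at 0.37 (0.25 to 0.48), Ccl2 at 0.07, Ccl7 at -0.28 and Ccl12 at -0.40. Ccl8 stood at 0.16 without the 5 cells of each library that held the most of it. In MHC II-high cells none of the 5 passed 2-fold either (0.566% and 0.261%), with ratios from -0.32 for Ccl12 to 0.11 for Ccl8. The latter was 0.84 (0.65 to 1.03) without the top 5 cells and ran from -0.74 to 0.84 over the alternatives, so it has no stable sign. None passed in proliferating cells (0.492% and 0.542%), with ratios from -0.56 for Ccl7 to 0.05 for Ccr2, and Ccl8 there ran from -0.92 to 0.63 over the alternatives. In resident-like macrophages, with classes taken from clusters of similar cells in place of the gates, Ccl8 was at 0.10, Ccl12 at 0.18 and Ccr2 at -0.04, so the signs of Ccl12 and Ccr2 turned on how cells were classed.

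Monocyte-like cells had the most members past 2-fold among the myeloid states. Ccl7 (50 and 144 UMIs) was at a log2 ratio of 1.68 (1.20 to 2.17) and Ccl12 (27 and 96 UMIs) at 1.98 (1.35 to 2.65), so 2 of 5 members passed 2-fold higher, where 0.383% of 6529 genes did (0.23% lower). Ccl2 was at 0.61 (0.43 to 0.78), Ccl8 at 0.05 and Ccr2 at -0.29 (-0.40 to -0.17). The 5 cells with the most Ccl12 held 51.9% and 70.8% of its UMIs, and without the top 5 cells the ratio was 1.27 for Ccl12 and 1.20 for Ccl7. By clusters neither passed 2-fold (0.78 and 0.64). Ccl2 was also higher in granulocyte-like cells of sGC ∆PC (log2 1.11, 0.51 to 1.73), where Ccl7 had 7 and 22 UMIs, too few for a call. The part of free RNA in the monocyte-like ratios was not tested.

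In Gpnmb-high cells Ccl8 (104 and 267 UMIs) was at 1.39 (1.06 to 1.73), 1 of 5 members past 2-fold (0.592% of genes higher, 0.309% lower), and 65.4% and 73.0% of its UMIs came from 5 cells, without which the ratio was 1.05 (0.45 to 1.67). It ran from 0.96, with limits on other lists halved, which ends the call, to 3.34, and only 57 of 263 and 70 of 252 of these cells fell in the matching class by clusters. In the remaining myeloid cells Ccl12 (970 and 2248 UMIs) was at 1.27 (1.16 to 1.38), again 1 of 5 (0.652% and 0.1%), and 45.6% of the sGC ∆PC UMIs came from 5 cells, 463 of them from 1 cell. By clusters that ratio was -0.54, so its direction turned on how cells were classed.

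In cancer-like cells all 5 ratios lay above 0 and none passed 2-fold, where 2.16% of 14959 genes did so higher and 0.127% lower. Ccl2 was at 0.39 (0.38 to 0.40; 180348 and 167710 UMIs) and Ccl7 at 0.30 (80.7 and 99.5 CPM), while Ccl8 at 0.38, Ccl12 at 0.26 and Ccr2 at 0.95 (0.79 to 1.11) rest on levels of 5.62 CPM or less. The myeloid marker list was also higher in these cells (1.74 and 2.68 UMIs per 10000, all 13 markers seen in both, single cells from 0 to the gate of 10), and its part in the ratios was not tested. Ccl2 itself stood at 64.3% and 92.1% of its myeloid level and Ccl7 at 18.7% and 31.6%, far above the 0.478% and 0.804% of the marker list. Depth differed between the libraries as well, with medians of 50697 and 19388 UMIs. Within ranges of depth, Ccl2 was 571 CPM (514 to 634, 110 cells) and 623 CPM (611 to 635) in cells of 2000 to 10000 UMIs. It was 582 and 666 CPM from 10000 to 20000, 369 and 544 CPM from 20000 to 50000, and 498 and 616 CPM from 50000. The value of sGC ∆PC was higher in each of these 4 ranges, but the intervals overlapped in the lowest. Median depths still differed within ranges, at 5182 and 7006.5 UMIs in the lowest and 16299 and 13479 in the next. Ccl2 was also higher in sGC ∆PC in proliferating (459 and 557 CPM) and in other cancer-like cells (461 and 618 CPM).

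Ccl2 was at 1.36 (1.12 to 1.61) in fibroblast-like cells (205 and 398 UMIs) and at 1.46 (1.28 to 1.64) in endothelial-like cells (390 and 764 UMIs). In fibroblast-like cells it was the only 1 of 3 members with enough UMIs that passed 2-fold, where 1.15% of 6338 genes passed higher and 1.86% lower. Ccl7 was at 0.78 (0.47 to 1.10) and Ccl8 at 0.21 (-0.05 to 0.47), and thinned to equal depth both lay below 0 (-0.19 and -0.45). Without the 5 cells of each library with the most Ccl2 the ratio was 0.80 (0.40 to 1.21), so the 2-fold difference turned on those cells, and the counting intervals of the thinned shares, 7.88 to 25.7% and 20.8 to 42.9%, overlapped. In endothelial-like cells Ccl2 was the 1 member with enough UMIs (0.787% of 5848 genes higher, 0.667% lower); it remained at 1.43 (1.08 to 1.78) without the top 5 cells and ranged from 0.79 to 2.53 over the alternatives. Cells with at least 10 Ccl2 UMIs numbered 5 of 72 and 6 of 74 fibroblast-like and 7 of 53 and 13 of 48 endothelial-like cells.

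Ccl2 was likewise past 2-fold higher in sGC ∆PC in granulocyte-like cells, which served as background (1.11, the 1 member with enough UMIs there; 1.64% of genes higher, 1.7% lower). T cell-like cells had 11 and 38 Ccl2 UMIs, too few for a call. The cancer list of fibroblast-like cells stood at 0.941 and 1.30 UMIs per 10000 (4 of 4 markers seen in both) and that of endothelial-like cells at 0.948 and 0.787 (4 of 4). The part of RNA from other cells in the fibroblast- and endothelial-like differences was not tested. In T cell-like cells Ccr2, the 1 member with enough UMIs, was at -0.31 (-0.99 to 0.38) and did not pass 2-fold (1.38% higher, 1.54% lower). In dendritic-like cells 3 members had enough UMIs: Ccl2 at 2.03 and Ccl12 at 6.87 passed 2-fold higher (1.39%) and Ccr2, 128 and 39 UMIs, at -1.15 (-1.70 to -0.62) passed 2-fold lower (2.08%). Single cells held 46 of the 80 Ccl2 UMIs and 78 of the 79 Ccl12 UMIs of sGC ∆PC, Ccl2 ran from 0.78 to 2.38 over the alternatives, Ccr2 was at -0.76 with limits on other lists halved, and with the own list at 2 times its level none of the 3 calls was left.

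**Figure D3:**
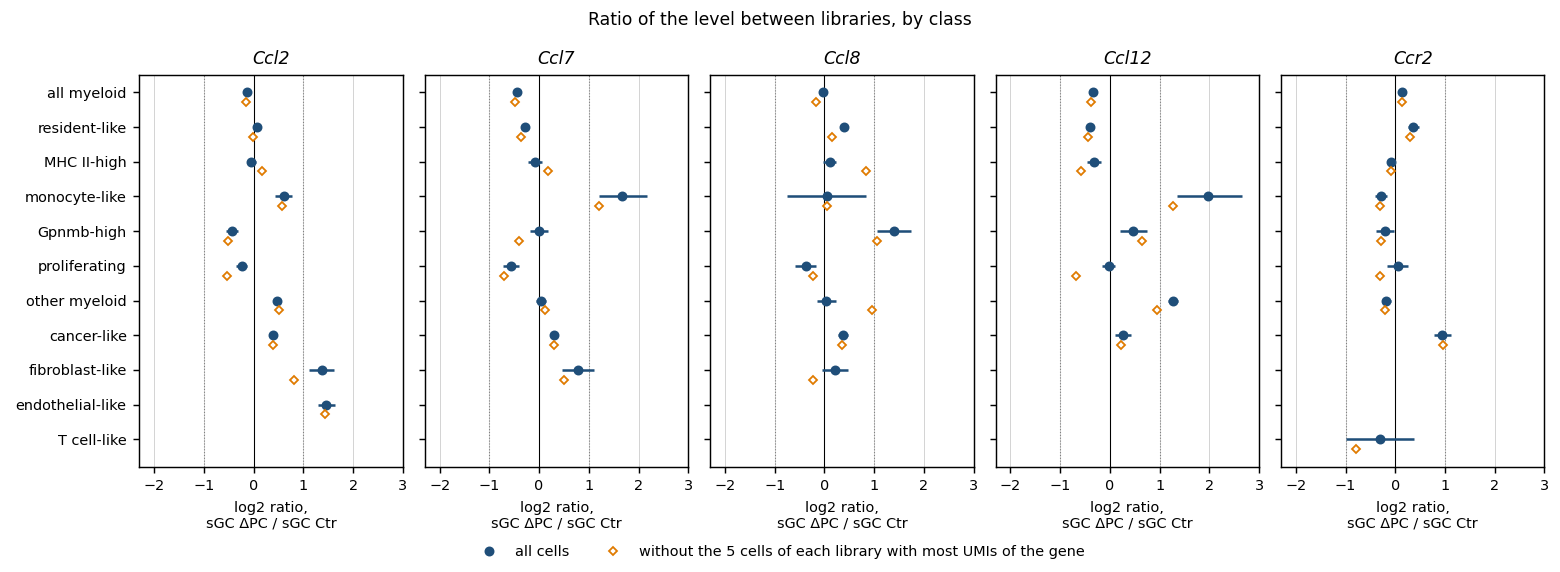
Ratio of the level in sGC ∆PC to that in sGC Ctr for each gene by class (horizontal axis, log2), where the libraries together held 50 or more of its UMIs. Filled dots are all cells with 95% counting intervals, open diamonds leave out the 5 cells of each library with the most UMIs of the gene, and dotted lines mark 2-fold. Ccl2 lies near 0 in all myeloid cells (-0.13) and past 2-fold in fibroblast-like (1.36) and endothelial-like cells (1.46), where leaving out the 5 cells gives 0.80 and 1.43.

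Of all Ccl2 UMIs in kept cells, 80.8% and 65.5% lay in cancer-like cells, 9.58% and 6.54% in myeloid cells, and 9.33% and 27.4% in cells of no class. Cancer-like cells held 82.2% and 67.4% of the UMIs of all genes, so their part of Ccl2 was just below their part of the RNA. They held 62.1% and 53.9% of Ccl7, with 16.9% and 8.42% in resident-like macrophages. Resident-like macrophages held 58.9% and 40.1% of Ccl8 and 58.0% and 30.5% of Ccl12, beside 2.00% and 1.41% of the UMIs of all genes. In sGC ∆PC, cells of no class held about as much (39.3% of Ccl8 and 30.9% of Ccl12). Myeloid cells held 73.4% and 60.2% of the Ccr2 UMIs, of which monocyte-like cells held 12.2% and 7.83% of the whole and MHC II-high cells 21.6% and 25.1%. Fibroblast-like cells held 1.53% and 1.14% of Ccl8 and at most 0.374% of every other member.

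**Figure D4:**
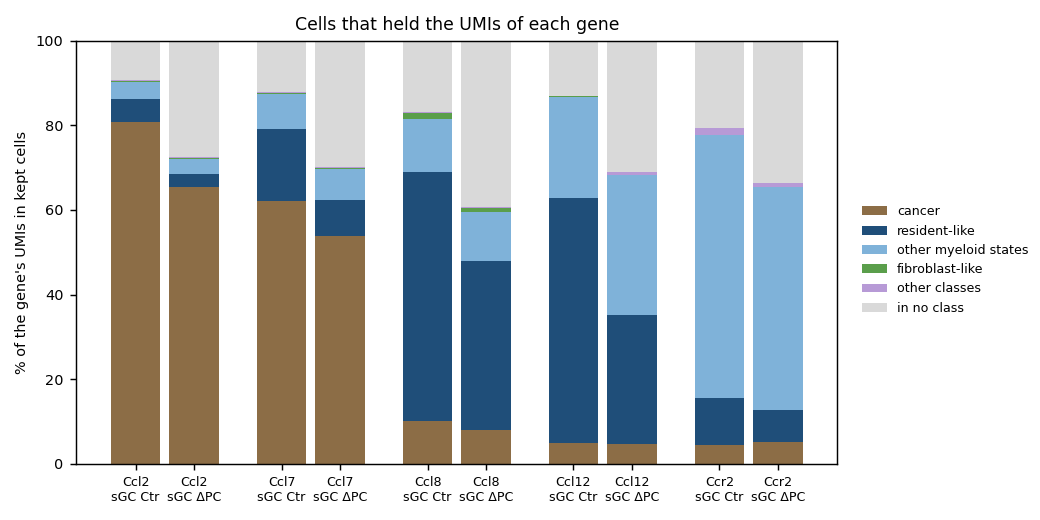
Percentage of each gene's UMIs in kept cells (vertical axis, stacked to 100%) that lay in cancer-like cells, resident-like macrophages, other myeloid states, fibroblast-like cells, other classes and cells of no class, for each library. Cancer-like cells make up the larger part of the Ccl2 bars (80.8% and 65.5%) and the Ccl7 bars, myeloid states that of Ccl8, Ccl12 and Ccr2.

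Over the 24 levels of 12 classes in 2 libraries, the profiles of Ccl7, Ccl8 and Ccl12 were alike (Pearson r of log2(CPM + 1) from 0.80 to 0.82 between pairs). Ccl2 was less like Ccl7 (0.65) and unlike Ccr2 (-0.06). Of 6116 genes compared, the 3 most like Ccl2 were Camk1 (0.85), Pdgfa (0.83) and Rgl1 (0.82), and those most like Ccl7 were Uap1l1 (0.89), Cdk14 (0.89) and Etv5 (0.88). Rnase4 (0.86), Dhrs3 (0.85) and Pdpn (0.83) were most like Ccl8; Rnase4, a secreted ribonuclease, had its highest level in fibroblast-like cells (741 and 724 CPM) and then in resident-like macrophages (371 and 346 CPM). Cbr2 (0.96), Ms4a7 (0.93) and C1qa (0.93) were most like Ccl12, though Cbr2 and C1qa belong to the gates. Havcr2 (0.98), Runx3 (0.97) and Tnfaip8l2 (0.96) were most like Ccr2. The 24 levels share libraries and gates, and no test was made.

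Other genes of the pathway were counted from lists of 16 other CC ligands, 8 receptors, 3 scavenging receptors, 11 genes of monocyte traffic and 19 inducers and NF-kB genes. Among myeloid cells 10, 3, 0, 10 and 17 of these had enough UMIs, and 2 other CC ligands passed 2-fold higher in sGC ∆PC and none of the 40 lower, where 0.587% and 0.352% of all genes did. Those were Ccl17, a ligand of Ccr4 (82 and 185 UMIs, log2 ratio 1.398), and Ccl24, an eosinophil attractant (1.11); the lowest were Ccl5, a chemokine for T cells and monocytes (-0.44), and Ccl27a (-0.38). MHC II-high cells, whose share of the class differed between libraries, held 82 and 176 of the Ccl17 UMIs, and in them its ratio was 0.60 (0.22 to 0.998) and did not pass 2-fold. In resident-like macrophages Ccl24 (1.09) and Il1b, an inflammatory cytokine (73.2 and 150 CPM, 1.03), passed higher (0.795% of all genes, 0.408% lower), with Ccl4 (-0.47) and Rela (-0.34) lowest. In monocyte-like cells none of 31 passed 2-fold (0.383% and 0.23%), the lowest being Icam1 (-0.50) and Ccl5 (-0.75). In fibroblast-like cells, where 1.15% and 1.86% of all genes passed, Il6, a cytokine, had 5 and 47 UMIs (3.64, 2.32 to 5.33), followed by Irf1 (0.80), while Csf1r, the receptor of macrophage growth factor and a gate marker of myeloid cells, had 63 and 13 UMIs (-1.87) and Rela was at -0.75. In endothelial-like cells (0.787% and 0.667%) Ackr1, a venular receptor that binds Ccl2 and other chemokines without signaling, had 72 and 7 UMIs (-2.87, -4.24 to -1.75) and Selp, which encodes P-selectin, 113 and 31 UMIs (-1.37, -1.997 to -0.79). Irf1 was at 0.69. How many cells held the UMIs of Il6, Ackr1 and Selp was not examined. In cancer-like cells 7 of 41 passed higher and none lower (2.16% and 0.127% of all genes), led by Ccl5 (1.68, at 1.28 and 4.11 CPM) and Ccl24 (1.64, from 24 and 53 UMIs), and the lowest were Cx3cr1 (-0.46) and Stat6 (-0.11). The myeloid marker list was higher in the same cells too (1.74 and 2.68 UMIs per 10000), and its part in these ratios was not tested.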

How the data were processed

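Cell Ranger 6.1.1 on mm10 gave the counts, per the labels: the authors deposited whole-number UMI counts per gene and barcode for 1 library per condition. UMIs were summed here over the cells of each class. A filter took out cells with 10% or more mitochondrial UMIs, or whose log UMIs or genes lay over 3 median absolute deviations from their library's median. The others were classed at 2000 UMIs or more by the summed level of 15 marker lists per 10000 UMIs, with limits on the lists of other lineages. The granulocyte- and dendritic-like gates set no limit on the myeloid list. The limits were the treatment of doublets: they left out 375 and 2503 droplets with both myeloid and cancer markers. Of 500 simulated droplets with equal parts of macrophage and cancer RNA, at 6000 UMIs each, 48 were still taken by a class. Simulated mixes in other proportions are not reported here. The thresholds were set after the marker levels were seen, and the members and lists were chosen with earlier results of these data known.

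Levels are CPM with exact Poisson intervals, ratios of libraries have exact conditional binomial intervals and shares exact Clopper-Pearson intervals, all at 95%. Calls of 2-fold were made where the libraries together held 50 or more UMIs of a gene; thinner genes are given by their counts. In data simulated with Poisson counts, 95.9% of the intervals of 4481 genes held the true ratio. Those counts had no clustering of UMIs in few cells. The simulation thus cannot show how the intervals hold for genes with such clustering. The genes named are the members, the 2 farthest each way of the pathway lists per class (some are not reported here), and the 3 genes most like each member over log2(CPM + 1). Promoters came from RefSeq (GRCm38.p6), where 3 of the 5 members matched (Ccl8, Ccl12 and Ccr2). Python 3.11.15, numpy 2.4.6, scipy 1.17.1, pandas 2.3.3, scanpy 1.11.5, leidenalg 0.10.2 and biopython 1.88 were used. The alternatives were other filters, gates, depths, clusters and scalings; leaving out the 5 cells with the most UMIs of a gene was added after the data were seen. No replicate was available and no test was run. The study's own cell filter and cluster labels were not used here.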

Additional observations from a re-analysis of the deposited data

Results flagged for a closer look

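The log2 ratio between libraries (sGC ∆PC over sGC Ctr) had opposite signs in the myeloid class and in other classes for 3 ligands. For Ccl2 it was -0.13 in myeloid cells and 0.39 in cancer-like, 1.36 in fibroblast-like and 1.46 in endothelial-like cells. For Ccl7 it was -0.45 in myeloid cells, 0.30 in cancer-like cells and 0.78 in fibroblast-like cells. For Ccl12 it was -0.34 in myeloid cells and 0.26 in cancer-like cells. Cancer-like Ccl12 (1.77 and 2.12 CPM) stood at only 0.450% and 0.681% of its myeloid level. The myeloid marker list stood at 0.478% and 0.804% in the same cells, and the part of myeloid RNA in that Ccl12 ratio was not tested. The sign of Ccl2 in myeloid cells was not stable: it was 0.11 after thinning to 2000 UMIs, 0.0607 as the mean over cells and 0.08 with the states of sGC ∆PC weighted to the UMI shares of sGC Ctr, and Ccl7 in fibroblast-like cells was at -0.19 after thinning. These differences between classes were not tested, since each condition had 1 library.

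Kept cells that met no gate, which enter no comparison between classes, held a share of every member. It was 9.33% in sGC Ctr and 27.4% in sGC ∆PC for Ccl2, 12.2% and 29.9% for Ccl7, 16.8% and 39.3% for Ccl8, 13.1% and 30.9% for Ccl12, and 20.7% and 33.7% for Ccr2. The same cells held 10.6% and 25.5% of the UMIs of all genes. Over all kept cells, whatever their class, the log2 ratio was 0.41 for Ccl2, 0.22 for Ccl7, 0.43 for Ccl8, 0.01 for Ccl12 and 0.41 for Ccr2.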

How the results depend on the processing

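The ligands stood higher in resident-like macrophages than in monocyte-like cells, and Ccr2 lower, in all 90 alternative values, of which 27 moved in size. Of 531 alternative ratios between libraries 470 kept their sign. In myeloid cells, a mitochondrial limit of 5% gave -0.0567 for Ccl2, -0.37 for Ccl7, 0.28 for Ccl8 and 0.18 for Ccr2. Thinning to 2000 UMIs gave 0.11 for Ccl2, -0.28 for Ccl7, 0.21 for Ccl8, -0.0146 for Ccl12 and -0.0939 for Ccr2. The own list at 2 times its level gave -0.17 for Ccl2, -0.14 for Ccl8 and -0.29 for Ccl12, and limits on other lists halved gave -0.14 for Ccl8, -0.29 for Ccl12 and 0.18 for Ccr2. Clusters gave -0.0794 for Ccl2, -0.40 for Ccl7 and 0.0389 for Ccl8. Scaling to the median gene gave -0.0866, -0.41, 0.0175 and -0.29 for Ccl2, Ccl7, Ccl8 and Ccl12. The mean over cells gave 0.0607, -0.25, 0.16, -0.14 and -0.0807 for the 5 members in the order Ccl2, Ccl7, Ccl8, Ccl12 and Ccr2. Cells with at least 5000 UMIs gave 0.19 for Ccr2, and leaving out the top 5 cells gave -0.17 for Ccl8. In cancer-like cells Ccl2 was at 0.45 under the limit of 5%, 0.48 thinned, 0.32 with limits halved, 0.42 by clusters, 0.40 without barcodes in both libraries, 0.37 scaled to the median gene and 0.51 as the mean over cells. Ccl2 in fibroblast-like cells was at 0.80 without the top 5 cells.

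The number of members past 2-fold in monocyte-like cells was 2, and it was 1 with the own list at 2 times its level and 0 by clusters. In cancer-like cells it was 0, and 1 (Ccr2) under the limit of 5%, thinned, by clusters and as the mean over cells. In fibroblast-like cells it was 1, and 2 with the own list at 2 times its level and 0 without the top 5 cells. The share of all genes past 2-fold was taken in the main setting only. Whether that share moved with these counts is therefore not known. Ccl12 in the remaining myeloid cells turned to -0.54 by clusters. The cause of these shifts was not tested. No cluster met the endothelial- or dendritic-like gate. In 1 cluster (82 and 219 cells) the endothelial list was at 38.0 UMIs per 10000, but its cancer list, at 9.09, was over the limit used for clusters. Scrublet called 568 of 12220 cells in sGC Ctr and 0 of 22498 in sGC ∆PC, so it had not worked in the second and this alternative was not run. No paired analysis was possible because each condition had 1 library. The thin classes (48 to 74 fibroblast- and endothelial-like cells per library) limit what can be read there, and with 1 library per condition the spread between tumors cannot be seen.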

Other observations

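Some genes were higher in the pooled RNA of resident-like macrophages with at least 3 Ccl8 UMIs (156 and 116 cells) than in those with none (466 and 259 cells). How many cells held each of these genes was not examined. The genes below were chosen after their values were seen, and no test was made. Cxcl9, an interferon-induced attractant of T cells, was at 315 against 14.3 CPM in sGC Ctr and 539 against 37.9 CPM in sGC ∆PC. Ednrb, an endothelin receptor, was at 130 against 0.354 CPM and 105 against 6.63 CPM, and Ccl5, a chemokine for T cells and monocytes, at 73.2 against 2.13 CPM and 83.2 against 8.52 CPM. Lyve1, a hyaluronan receptor of perivascular macrophages and part of the resident-like list, was at 330 against 61.3 CPM and 341 against 28.7 CPM. Of that list, Cd163 (22.4-fold and 2.96-fold), Gas6 (4.27-fold and 4.24-fold), Mrc1 (2.15-fold and 1.91-fold) and Stab1 (1.86-fold and 1.64-fold) were also higher. Folr2 (1.27-fold and 1.32-fold higher), Cbr2 (1.23-fold and 1.30-fold) and Maf (1.38-fold and 1.18-fold) differed less. Igf1, a growth factor, was at 71.6 against 6.73 CPM and 57.9 against 12.9 CPM.

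The other ligands were higher in the same cells, with Ccl2 at 1891 against 1030 CPM and 1876 against 1087 CPM, and Ccl12 at 1490 against 647 CPM and 1119 against 442 CPM. Ccr2 was lower, at 57.9 against 194 CPM and 65.6 against 237 CPM. Cells with Ccl8 were also deeper, with medians of 15386.5 against 11589.5 UMIs and 16953 against 11707 UMIs, and the part of depth in these values was not tested.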
